A study of Rattus norvegicus with 6 samples.

Results

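The core circadian clock genes described here are 10 transcripts, Clock, Per1, Per2, Per3, Cry1, Cry2, Nr1d1, Nr1d2, Dbp and Bhlhe40, taken by symbol from a count table of 16849 rat genes. All 10 were in the table and all 10 passed the filter on low counts, with 140 (Nr1d1) to 3315 (Nr1d2) reads per library. They were measured in RSC96 cells, an immortalised wild type rat Schwann cell line, in 6 libraries of total RNA forming 3 groups of 2. The PVDF@PDA group was kept under a hypoxia model with a piezoelectric material, and the PCL@PDA group under the same model with a material that is not piezoelectric. The model used medium conditioned by macrophages for 24 h, and it is not stated whether the Control cells received that medium. Differences from Control are therefore differences between whole conditions. Each group has a replicate 1 from batch 1 and a replicate 3 from batch 3, per the labels. The library names number the same libraries 1 and 2, and the titles, which number them 1 and 3, were followed. The sample descriptions of the PCL@PDA group name the other polymer, and its titles and treatment labels were followed. Nothing in the labels says that the replicates were separate cultures, so p-values here reflect scatter between libraries that may be technical. With 2 libraries a group, edgeR took the spread of a typical gene mostly from all genes together (median prior degrees of freedom 50.27, against 3 residual).

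The mammalian clock is a loop of transcription that takes about a day to turn. CLOCK pairs with BMAL1, or its relative NPAS2 does, and the pair switches on genes through E-box sequences, among them the Per, Cry, Nr1d and Dbp genes. PER and CRY proteins return to the nucleus and inhibit that pair. In an interlocked loop the REV-ERB receptors, made from Nr1d1 and Nr1d2, repress Bmal1 through sequences called ROREs, while DBP activates and NFIL3 represses genes that carry D-boxes. Bhlhe40 encodes DEC1, a repressor that competes for E-boxes and whose gene is also known to respond to hypoxia. Cultured cell lines carry this loop, but single cells drift apart in phase unless they are synchronised. The groups do not form a series of times, so the data give levels and not phase or amplitude.

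Letters matching these sequence elements are present near the starts of some of the genes. Of the matches 6 are shown, since regulators whose levels are described below are known to act through elements of these kinds. They were read from the RefSeq promoter table of the assembly GRCr8, which held 9 of the 10 members with 11 starts. Cry1 was not in it. The 250 bases before each start were searched on both strands. The searched letters were CACGTG (E-box), CACGTT (noncanonical E-box), TTATGTAA (D-box) and, for the RORE, AGGTCA directly preceded by AANT, with N for any base. Capitals mark the match, and sequences run 5′ to 3′ on the strand of the gene.
Nr1d1 E-box, chr10:84229630-84229655, minus strand: tcagctcccaCACGTGtctggggatc
Bhlhe40 E-box, chr4:143174220-143174245, plus strand: cgttgtccaaCACGTGagactcatgt
Bhlhe41 E-box, chr4:180569388-180569413, minus strand: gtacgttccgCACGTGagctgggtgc
Per2 noncanonical E-box, chr9:99497040-99497065, minus strand: cgcgcgcggtCACGTTttccactatg
Per2 D-box, chr9:99497168-99497195, minus strand: catgtgcgtcTTATGTAAagagagcgac
Bmal1 RORE, chr1:176766299-176766327, plus strand: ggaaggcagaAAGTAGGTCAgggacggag
An E-box stood before a start of 2 members, Nr1d1 and Bhlhe40, and a noncanonical E-box before a start of 3, Per2, Nr1d1 and Cry2. Per2 was the 1 member with a D-box, and 0 members had the RORE, which the non-member Bmal1 carried. Among the other loop genes searched, Ciart and Tef had an E-box as Bhlhe41 did, and Bmal2 had a noncanonical E-box. Among all 33469 starts in the table, 5.59% had the E-box, 4.07% the noncanonical E-box, 0.828% the D-box and 0.206% the RORE in the same window. The hypoxia core ACGTG, which lies inside every CACGTG and every CACGTT on one strand or the other, was found in 16.6% of all starts and before a start of 4 members. Bhlhe40 had such a core at 3 places, of which the E-box is the farthest from the start, at base 220 before it, and the others begin at bases 149 and 124. A match is a description of the letters and not a shown binding site.

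Every member was detected in every library. Compared per length, in the deposited FPKM (scaled for gene length and library size), Bhlhe40 was the most abundant at 22.7 ± 3.38 (SD over the 6 libraries) and Per3 the least at 1.74 ± 0.241. Between them came Nr1d2 at 17.9 FPKM, Cry1 at 11.9, Cry2 at 8.93, Clock at 8.11, Dbp at 7.16, Per2 at 5.03, Per1 at 4.19 and Nr1d1 at 2.0. Bhlhe40 and Nr1d2, Cry2 and Clock, Clock and Dbp, and Nr1d1 and Per3 were neighbours whose ranges overlapped, so their order is not resolved. The other steps held in 6 of 6 libraries. All levels from here on are CPM (counts relative to library size, scaled by TMM), which compare 1 gene between libraries and not different genes with each other.

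Against Control, the called differences among the members were in Nr1d1, Nr1d2, Dbp and Cry2, and those in Clock, Cry1, Bhlhe40 and the Per genes did not pass. With both material groups pooled (4 libraries against 2), Nr1d1 rose by 43.8%, Nr1d2 fell by 17.8% and Dbp fell by 23.2%. These were 3 of the 10 members, 1 higher and 2 lower, by edgeR's quasi-likelihood test at an adjusted p below 0.05, where 22.3% of all 13018 genes tested were called, 9.76% higher and 12.6% lower. The share of members is close to that background. With library totals in place of TMM 4 members were called, 3 higher (Nr1d1, Cry1, Cry2) and 1 lower (Nr1d2), and the calls over all genes were 1684 higher and 1211 lower in place of 1271 and 1638. The median log2 difference was -0.02 over the members and 0.01 over all genes, and the median size was 0.15 for both. With PVDF@PDA alone 1 member was called, Nr1d2 (15.7% of all genes), and with PCL@PDA alone 3 were called, Cry2, Nr1d2 and Dbp (20.1% of all genes). Both comparisons use the same 2 Control libraries. Without Control replicate 1 the pooled count was 1, the PCL@PDA count was 1 without that library or PCL@PDA replicate 3, and the PVDF@PDA count was 0 without either PVDF@PDA library and 2 without PCL@PDA replicate 3. The plot of CPM by library shows all 10 genes.

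**Figure D1:**
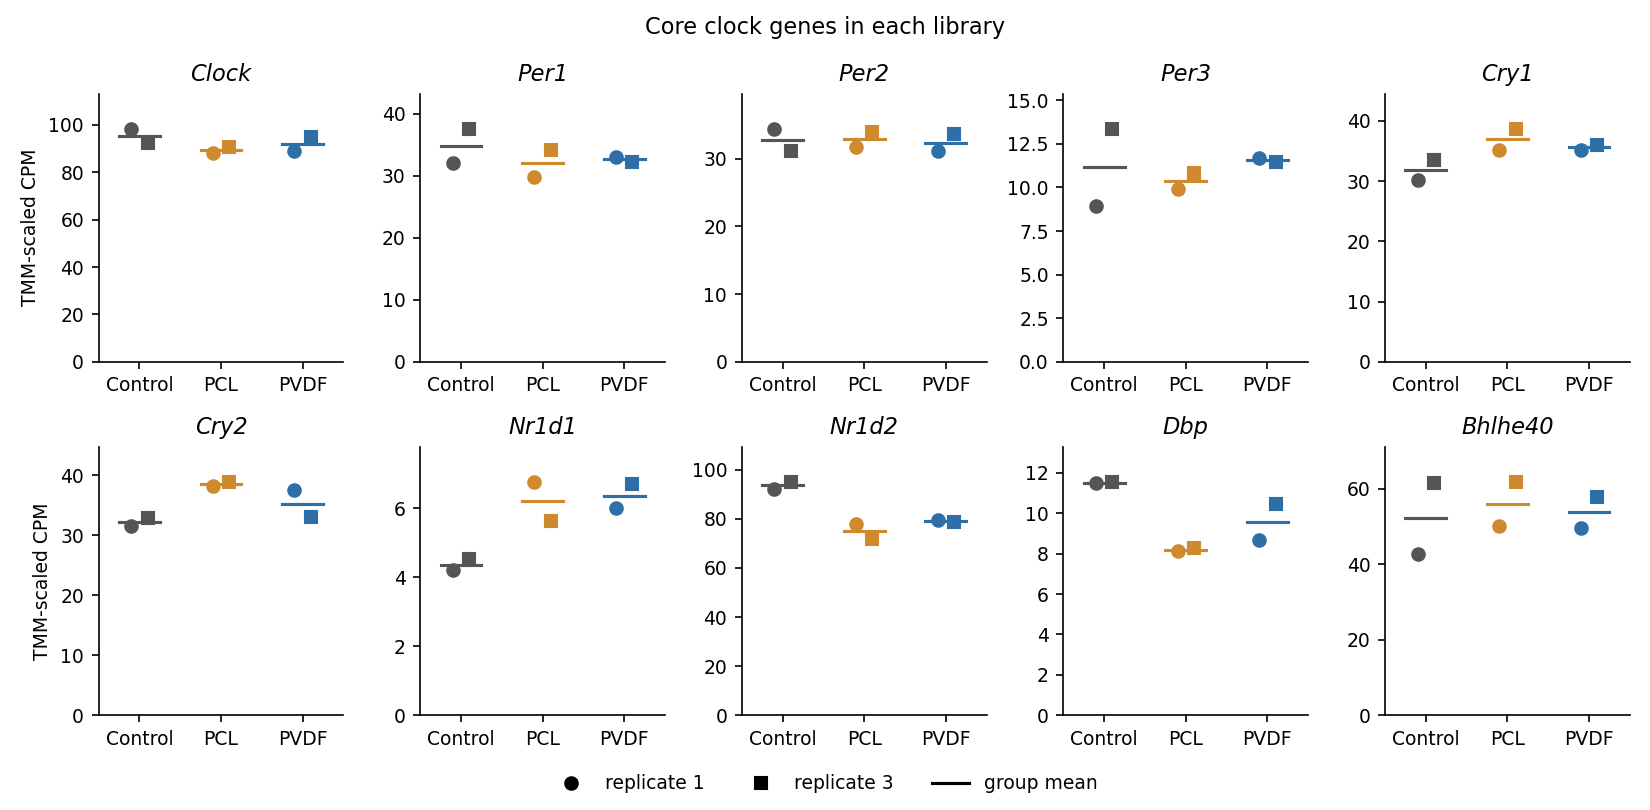
TMM-scaled CPM (vertical axes, from 0) of the 10 core clock genes in Control, PCL@PDA and PVDF@PDA libraries, with a circle for replicate 1, a square for replicate 3 and a line for the group mean. All 4 material libraries lie above both Control libraries for Nr1d1, Cry1 and Cry2 and below both for Nr1d2 and Dbp.

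Nr1d2 encodes REV-ERB beta, the second of the heme-binding repressors of Bmal1, and its difference from Control was called in more of the alternatives than that of any other member. It lay at 79.4 and 78.9 CPM in PVDF@PDA replicates 1 and 3, at 77.8 and 72.0 in PCL@PDA and at 92.2 and 95.1 in Control. Every material library was below every Control library. The log2 difference was -0.24 with PVDF@PDA (SE 0.07, edgeR adjusted p = 0.00808) and -0.32 with PCL@PDA (SE 0.07, adjusted p = 0.000279). For both materials together it was -0.28 (SE 0.06, adjusted p = 0.000161), and this call held in 14 of 14 alternatives, with adjusted p up to 0.0301. The call for PVDF@PDA alone ended without replicate 1 (adjusted p = 0.0643) or 3 (0.0832) of PVDF@PDA or Control replicate 3 (0.0974). It also ended in limma on log2 FPKM, at 0.0937 with a pseudocount of 1 and 0.0925 with 0.1, in a range of 0.000446 to 0.0974 over its alternatives.

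Nr1d1, which encodes the sister receptor REV-ERB alpha, lay the other way. Its level was 6.01 and 6.72 CPM in PVDF@PDA, 6.77 and 5.63 in PCL@PDA and 4.20 and 4.53 in Control, again with no overlap between material and Control libraries. These values rest on 140 to 234 reads per library. The log2 difference was 0.52 for both materials together (SE 0.18, edgeR adjusted p = 0.0324), 0.54 with PVDF@PDA alone (SE 0.21, adjusted p = 0.0678) and 0.51 with PCL@PDA alone (SE 0.21, adjusted p = 0.0805). With the replicate number as a block the PVDF@PDA difference passed (adjusted p = 0.0490), as it did without PCL@PDA replicate 3 (0.0497), in a range up to 0.344. The joint call ended in DESeq2 (0.0617) and without PVDF@PDA replicate 3 (0.0966), PCL@PDA replicate 1 (0.0826), Control replicate 1 (0.220) or Control replicate 3 (0.110), in a range of 0.0187 to 0.220.

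The 3′ end of Nr1d1 is known to overlap Thra, the thyroid hormone receptor alpha gene on the opposite strand. In the GRCr8 annotation the genes share 1061 bases, while the submitters' notes name another build, mRatBN7.2, for the counts. The counting strand is not given in the sources used here, so reads of Nr1d1 and Thra in that stretch cannot be told apart. Thra lay at 16.2 and 14.7 CPM in PVDF@PDA, 17.9 and 16.1 in PCL@PDA and 12.7 and 11.7 in Control, and it rose by 0.41 on the log2 scale with both materials together (SE 0.12, edgeR adjusted p = 0.00740). That call ended without Control replicate 3 (0.132), in a range of 0.00300 to 0.132. The log2 ratio of Nr1d1 to Thra counts was -1.43 and -1.13 in PVDF@PDA, -1.40 and -1.52 in PCL@PDA and -1.59 and -1.37 in Control, and these ranges overlapped. The part of Thra reads in the Nr1d1 difference was not tested.

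Ratios within a library do not depend on scaling between libraries, and they set the opposite moves side by side. The log2 ratio of Nr1d1 to Nr1d2 counts was -3.72 and -3.55 in PVDF@PDA and -3.52 and -3.67 in PCL@PDA, against -4.46 and -4.39 in Control. The ratio of Nr1d1 to Dbp was -0.53, -0.64, -0.26 and -0.55 in the material libraries, in the same order, against -1.45 and -1.35 in Control. The ratio of Nr1d1 to Bmal1 was -3.62 and -3.51 in PVDF@PDA, -3.46 and -3.70 in PCL@PDA and -4.33 and -4.25 in Control. In each of these 3 ratios all 4 material libraries were above both Control libraries, which follows from the levels above, since the genes in each pair do not overlap and lie on opposite sides of Control. The ratios of Per2 to Cry1 (-0.19 to -0.10 with the materials, 0.19 and -0.10 in Control) and of Per1 to Per2 (-0.09 to 0.08, against -0.11 and 0.27) overlapped. The ratio to Nr1d2 and that to Dbp were chosen after the values were seen.

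**Figure D2:**
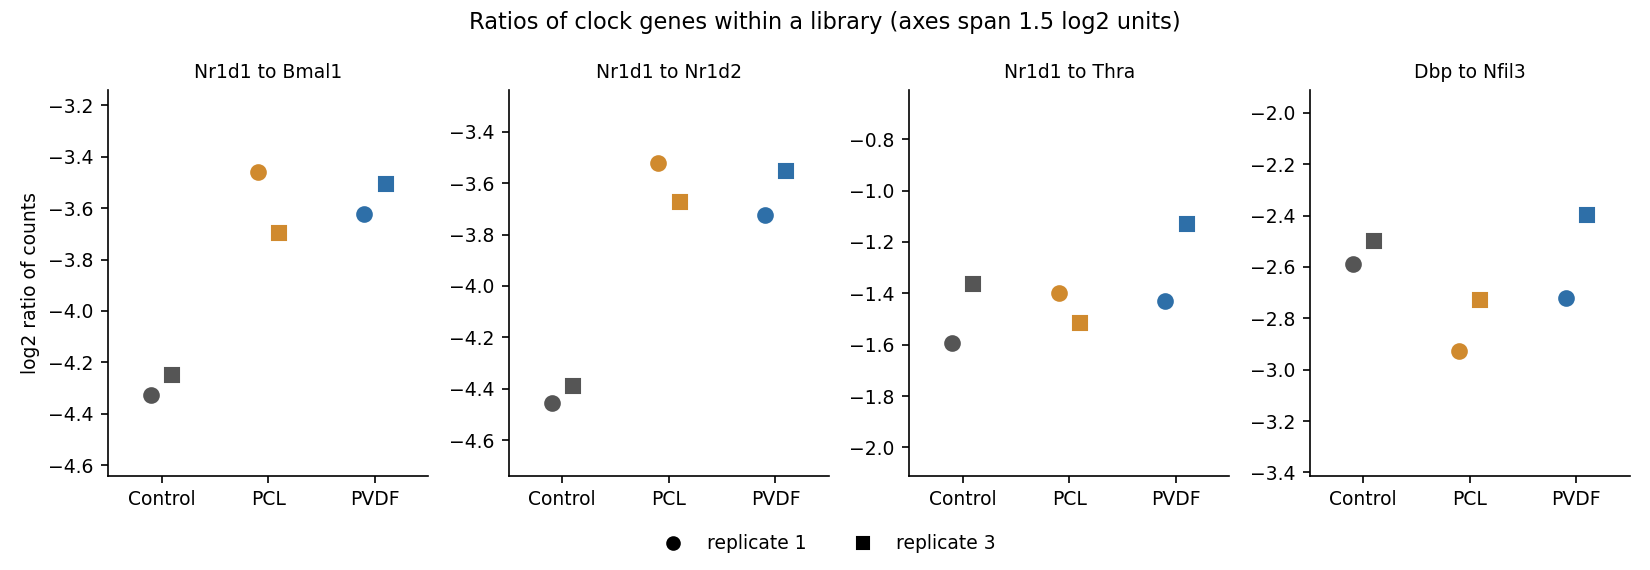
Log2 ratios of read counts within each library (vertical axes, each spanning 1.5 log2 units) for Nr1d1 to Bmal1, Nr1d1 to Nr1d2, Nr1d1 to Thra and Dbp to Nfil3, with a circle for replicate 1 and a square for replicate 3. The ratios of Nr1d1 to Bmal1 and to Nr1d2 separate materials from Control, between -3.72 and -3.46 against -4.46 to -4.25 over the 2 ratios, and the ratios to Thra overlap.

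Dbp encodes the D-box activator DBP and is among the most strongly cycling outputs of the clock. It lay at 8.65 and 10.5 CPM in PVDF@PDA, 8.13 and 8.26 in PCL@PDA and 11.5 and 11.6 in Control. It fell with PCL@PDA, by 0.49 on the log2 scale (SE 0.16, edgeR adjusted p = 0.0232), and lay at a difference of -0.27 with PVDF@PDA (SE 0.16, adjusted p = 0.272). Both materials together gave -0.38 (SE 0.14, adjusted p = 0.0375). The PCL@PDA call ended without either library of PCL@PDA (0.0596 and 0.0634 without replicates 1 and 3) or of Control (0.104 and 0.0971), in a range of 0.0134 to 0.104. The joint call ended without PVDF@PDA replicate 1 (0.155), Control replicate 1 (0.173) or Control replicate 3 (0.175), with library totals alone (0.0704), in DESeq2 (0.0730) and in limma with a pseudocount of 1 (0.0509), in a range of 0.0243 to 0.175.

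The cryptochromes Cry1 and Cry2, the stronger transcriptional repressors of the PER and CRY complex, were higher in every material library than in either Control library. Cry2 lay at 37.5 and 33.1 CPM in PVDF@PDA, 38.3 and 38.9 in PCL@PDA and 31.6 and 32.97 in Control, so that PVDF@PDA replicate 3 stood just above the upper Control library. Cry2 rose with PCL@PDA (log2 0.26, SE 0.09, edgeR adjusted p = 0.0391) and lay at 0.13 with PVDF@PDA (SE 0.09, adjusted p = 0.389) and 0.19 with both together (SE 0.08, adjusted p = 0.0778). The PCL@PDA call ended without PCL@PDA replicate 3 (0.109), Control replicate 1 (0.243) or Control replicate 3 (0.1004), in DESeq2 (0.0697) and in both limma fits (0.0733 and 0.0681), in a range of 0.0182 to 0.243. Cry1 lay at 35.2 and 36.0 CPM in PVDF@PDA, 35.1 and 38.7 in PCL@PDA and 30.2 and 33.4 in Control. Its difference was 0.19 for both materials together (SE 0.08, adjusted p = 0.0919), and it passed with library totals alone (0.0428) and without PCL@PDA replicate 1 (0.0298), in a range up to 0.573. In GRCr8, which is not the build named for the counts, the span of Cry1 overlaps that of the uncharacterised gene LOC120093541. How reads in any shared stretch were assigned is therefore uncertain.

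Over the 10 members, 5 did not overlap between the 4 material and the 2 Control libraries, 3 higher (Cry1, Cry2, Nr1d1) and 2 lower (Nr1d2, Dbp). Among all genes tested the share was 39.6%, with 19.3% higher and 20.3% lower, so this count is near the background too.

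The Period genes, whose products carry CRY to the nucleus and bind casein kinase, showed no called difference from Control. Per2 lay at 31.2 to 34.0 CPM with the materials and at 34.5 and 31.1 without. Its log2 difference for both materials together was -0.01, with a 95% interval of -0.17 to 0.16, and 0.03 with library totals alone. Per1, which also answers directly to glucocorticoid and cAMP signals, lay at 29.8 to 34.2 CPM with the materials against 32.0 and 37.6 (log2 -0.11, interval -0.28 to 0.06). Per3 lay at 11.7 and 11.4 CPM in PVDF@PDA and 9.92 and 10.8 in PCL@PDA, and its Control libraries, at 8.94 and 13.4, enclosed all 4 (log2 -0.03, interval -0.31 to 0.25, and 0.01 with library totals alone). Clock, the DNA-binding activator, lay at 92.0 ± 4.17 CPM in PVDF@PDA, 89.4 ± 1.90 in PCL@PDA and 95.3 ± 4.35 in Control (SD, n = 2 each; joint log2 -0.07, interval -0.18 to 0.04). For Clock, Per1, Per2 and Per3 the interval of the joint difference thus stayed within 0.31 log2 of 0.

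**Figure D3:**
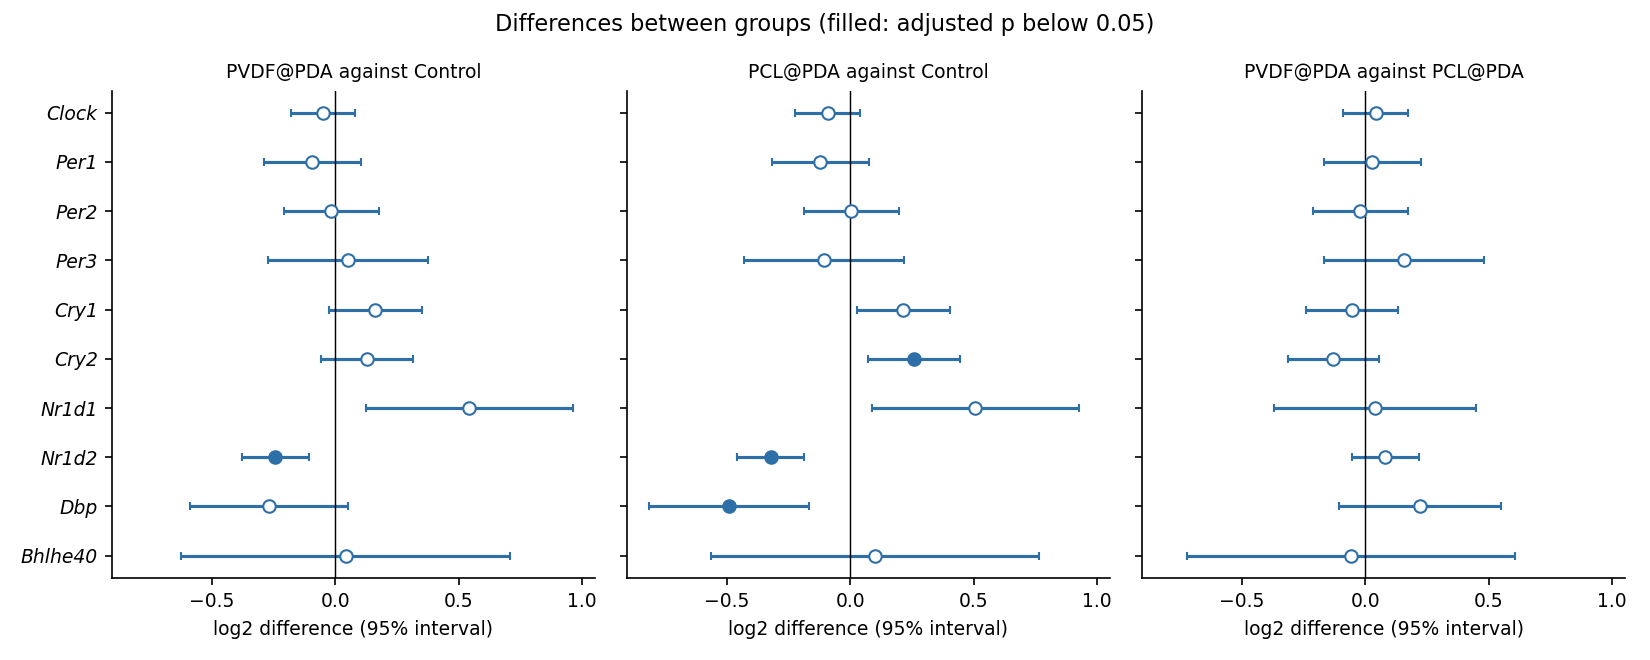
Log2 differences (horizontal axes) with 95% intervals for the 10 core clock genes in the 3 comparisons of groups, with filled points for an adjusted p below 0.05 in edgeR's quasi-likelihood test over all genes. Nr1d2 is called lower with both materials, Dbp lower and Cry2 higher with PCL@PDA, and none of the 10 between the materials.

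Bhlhe40 differed between the replicates and was not called between groups. It lay at 49.7 and 57.8 CPM in replicates 1 and 3 of PVDF@PDA, 50.1 and 61.8 in PCL@PDA and 42.7 and 61.6 in Control. The difference of both materials from Control was 0.07 (SE 0.20, interval -0.51 to 0.65, edgeR adjusted p = 0.860), in a fit with no term for the replicate number. With the replicate block it was 0.08, with a narrower interval of -0.05 to 0.22 (SE 0.07, edgeR adjusted p = 0.385). Within batch 1 the materials were above Control by 0.22 (PVDF@PDA) and 0.23 (PCL@PDA), and within batch 3 they lay at -0.09 and 0.01. Without Control replicate 3 the joint difference was 0.36 and passed (adjusted p = 0.00626), and without Control replicate 1 it was -0.17 (0.269), so the Control library kept decides it. The difference between the batches in the contrast with Control did not pass (interaction log2 -0.26, SE 0.15, edgeR unadjusted p = 0.0946, adjusted p = 1.00), in a test that pooled the materials.

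In a fit with the replicate number as an added term, chosen after the counts were seen, Bhlhe40 was higher in replicate 3 than in replicate 1 by 0.35 on the log2 scale (SE 0.06, edgeR adjusted p = 7.83e-05). It was the 1 member of 10 called, against 0.246% of all genes, and stayed so with RLE size factors and with library totals alone. The step was 0.22 in PVDF@PDA, 0.30 in PCL@PDA and 0.53 in Control. Per3 had a step of 0.58 in Control, 0.13 in PCL@PDA and -0.03 in PVDF@PDA, and did not pass (log2 0.22, SE 0.12, adjusted p = 0.592). That fit took the spread of most genes from the trend over all genes, since the prior degrees of freedom had an infinite median. Batch is all that the labels say of the replicate number.

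**Figure D4:**
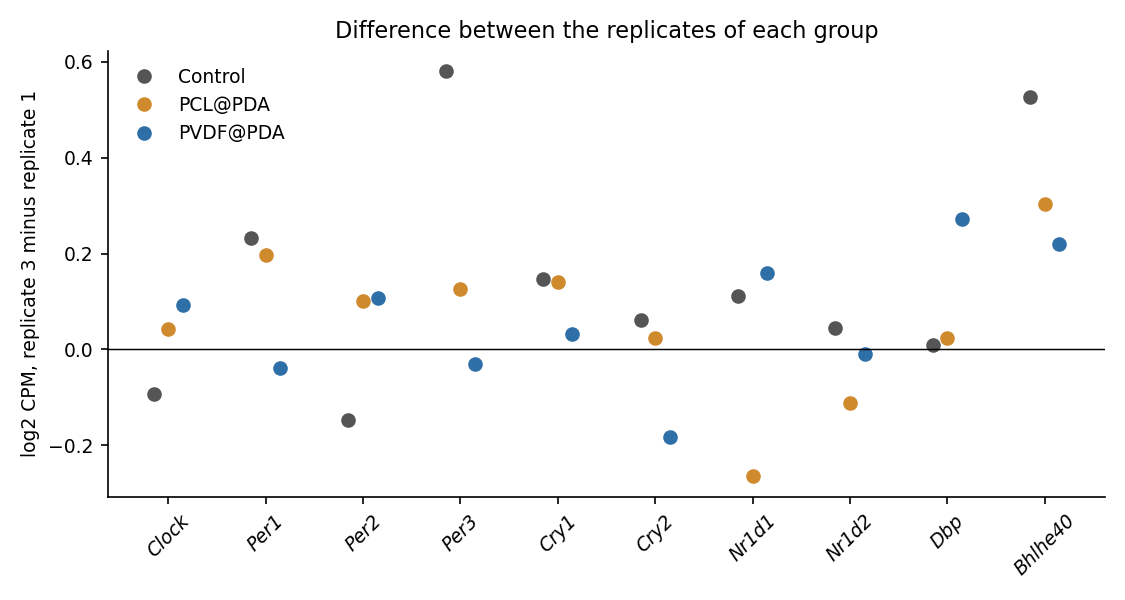
Log2 CPM of replicate 3 minus replicate 1 (vertical axis) for each core clock gene in Control, PCL@PDA and PVDF@PDA. Bhlhe40 is above 0 in the 3 groups, at 0.22 to 0.53, and the Control value of Per3 reaches 0.58.

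The series' design sets PVDF@PDA against PCL@PDA to assess piezoelectricity, but these are different polymers, so the contrast is between whole materials. In it 0 of 10 clock genes were called by edgeR, where 0.0615% of all genes were. At an unadjusted p below 0.05 edgeR also had 0 members, against 8.49% of all genes, and DESeq2 and both limma fits called 0. The largest difference was that of Dbp, at 0.22 (SE 0.16, interval -0.11 to 0.55, adjusted p = 0.717), with PVDF@PDA at 8.65 and 10.5 CPM above PCL@PDA at 8.13 and 8.26. Per3 (log2 0.16) and Nr1d2 (0.08) were likewise higher in both PVDF@PDA libraries, and Cry2 (-0.13) was lower in both. These 4 of 10 members without overlap compare with 38% of all genes. The intervals allow differences of -0.09 to 0.17 for Clock, -0.17 to 0.22 for Per1, -0.21 to 0.17 for Per2, -0.24 to 0.13 for Cry1, -0.06 to 0.22 for Nr1d2 and -0.32 to 0.06 for Cry2. They were wider for Nr1d1 (-0.37 to 0.45) and Per3 (-0.17 to 0.48). For Bhlhe40 the interval was -0.72 to 0.61 without a term for the replicate number and -0.21 to 0.10 with the replicate block, and PVDF@PDA minus PCL@PDA was -0.01 in batch 1 and -0.10 in batch 3.

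Of 12 listed other transcription factors of the loops 10 were tested, and 5 of them were called. With both materials together edgeR called 2 higher and 3 lower than Control, where 9.76% and 12.6% of all genes were, and both limma fits called 2 higher and 0 lower. The list had a median log2 difference of -0.14 against 0.01 over all genes. Bmal1 (Arntl in the deposited table), the obligate partner of CLOCK and a known target of REV-ERB repression, lay at 74.1 and 76.3 CPM in PVDF@PDA, 74.4 and 73.1 in PCL@PDA and 84.2 and 86.3 in Control. It fell by 0.20 on the log2 scale (SE 0.06, edgeR adjusted p = 0.0104), a call that ended without Control replicate 1 (0.0740) or Control replicate 3 (0.137) and in both limma fits (0.0924 and 0.0930). Npas2, which can stand in for CLOCK, lay at 55.5 and 48.4, 50.7 and 47.3, and 57.3 in both Control libraries. It was called lower (log2 -0.18, SE 0.07, edgeR adjusted p = 0.0474), and in only 5 of 14 alternatives besides. The alternatives without a call include both limma fits. They also include the fits without PVDF@PDA replicate 3, PCL@PDA replicate 3, Control replicate 1 or Control replicate 3. Over the 6 fits with 1 library left out its log2 difference was -0.24 to -0.14.

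Nfil3, the repressor that competes with DBP at D-boxes, was lower as well. It lay at 57.1 and 55.1 CPM in PVDF@PDA, 61.9 and 54.7 in PCL@PDA and 69.1 and 65.4 in Control (log2 -0.23, SE 0.07, edgeR adjusted p = 0.00638), and the call ended without Control replicate 1 (0.160) and in limma (0.0808 and 0.0752). The log2 ratio of Dbp to Nfil3 counts was -2.72 and -2.40 in PVDF@PDA, -2.93 and -2.73 in PCL@PDA and -2.59 and -2.50 in Control. PVDF@PDA replicate 3 was above Control and the other 3 material libraries were below it. The DBP relatives Tef (log2 -0.12, adjusted p = 0.309) and Hlf (0.13, adjusted p = 0.891) were not called, and Hlf lay near 1 CPM.

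Bhlhe41, which encodes DEC2, rose where its relative Bhlhe40 did not pass. It lay at 46.6 and 43.5 CPM in PVDF@PDA, 44.5 and 41.6 in PCL@PDA and 32.0 and 30.9 in Control (log2 0.48, SE 0.08, edgeR adjusted p = 2.91e-06), and was called in 14 of 14 alternatives. Whether the 2 genes differ in response was not tested. Timeless, a clock homologue with a known role at the replication fork, rose by 0.45 (SE 0.06, adjusted p = 1.93e-07), from 55.9 and 54.1 in Control to 76.5 and 68.7 in PVDF@PDA and 77.3 and 78.6 in PCL@PDA. The PER-like repressor gene Ciart (log2 -0.16, adjusted p = 0.435), the activator Rorb (-0.41, adjusted p = 0.359) and Bmal2 (0.69, adjusted p = 0.156) did not pass. Rora, whose product activates Bmal1 against the REV-ERBs, had 0 to 4 reads per library and was not tested.

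**Figure D5:**
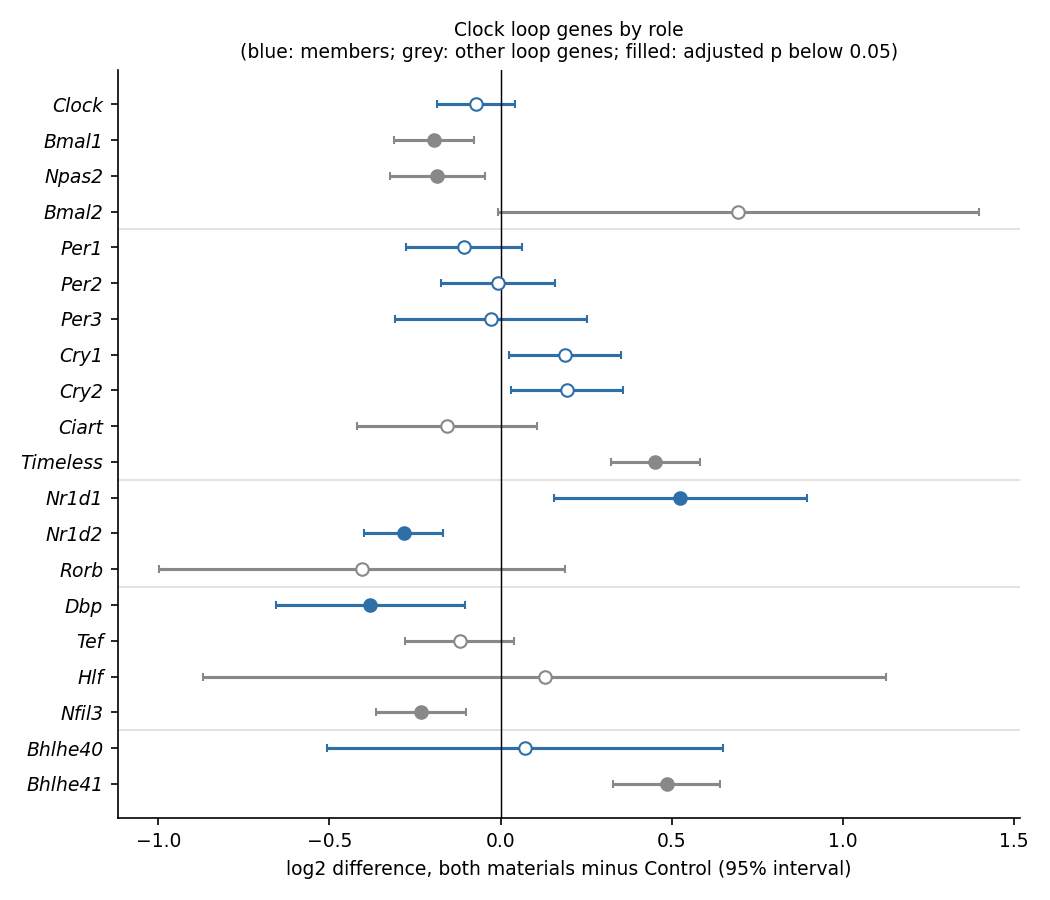
Log2 difference of both materials from Control (horizontal axis) with 95% intervals for 20 clock genes grouped by role, with core members in blue, other loop genes in grey and filled points for an adjusted p below 0.05. From top to bottom the groups are activators, Period and Cryptochrome genes with their associates, nuclear receptors, D-box factors and DEC repressors, and Nr1d1 and Nr1d2 lie on opposite sides of 0.

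Of 14 tested genes whose products modify clock proteins, which are kinases, ubiquitin ligases and the deubiquitinating enzymes Usp2 and Usp7, 1 was called with both materials together, against 22.3% of all genes. This was Csnk2a2, which was lower and encodes a catalytic subunit of casein kinase II (log2 -0.22, SE 0.06, edgeR adjusted p = 0.00508). That call ended without Control replicate 1 (0.0589) or Control replicate 3 (0.0698). The median over the 14 was -0.02.

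Among 8 tested output genes, of which Usp2 is also on the list above, edgeR called 3 higher and 1 lower, against 9.76% and 12.6% of all genes, with a median of 0.07. Limma called 2 higher and 0 lower with a pseudocount of 1 and 3 higher and 0 lower with 0.1. Noct, a rhythmic NADPH phosphatase gene, rose by 0.53 (SE 0.13, edgeR adjusted p = 0.00226), from 8.61 and 8.92 CPM in Control to 12.6 and 12.9 in PVDF@PDA and 13.1 and 11.9 in PCL@PDA. Por, the electron donor of cytochrome P450 enzymes, rose by 0.25 (adjusted p = 0.00296), and Nampt, of NAD synthesis, by 0.13 (adjusted p = 0.0329). The call of Por ended without Control replicate 3 (0.0600) and in limma with a pseudocount of 1 (0.0519), and that of Nampt without any single library of PVDF@PDA (0.0955 and 0.101) or Control (0.211 and 0.228). Tsc22d3, a glucocorticoid-induced leucine zipper gene, fell by 0.20 (adjusted p = 0.00688). That call ended without Control replicate 1 (0.125) and in both limma fits (0.123 and 0.116).

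Of 7 tested glucocorticoid-responsive genes, the class of inputs that acts on Per1, edgeR called 2 higher and 4 lower, against 9.76% and 12.6% of all genes, and both limma fits called 2 higher and 2 lower. Tsc22d3 is on this list as well as on the output list. Fkbp5, a receptor co-chaperone, fell by 0.32 (SE 0.05, edgeR adjusted p = 9.53e-06) and the transcription factor gene Cebpd by 0.81 (SE 0.17, adjusted p = 0.000167). The phosphatase gene Dusp1 rose by 0.48 (SE 0.05, adjusted p = 5.80e-10) and the kinase gene Sgk1 by 0.17 (SE 0.04, adjusted p = 0.00282, and 0.108 without Control replicate 3). Of 7 CREB-responsive genes edgeR called 0, as did DESeq2 and both limma fits, while 2 had an unadjusted edgeR p below 0.05. Of all 13018 genes edgeR called 2909, and 4320 had an unadjusted p below 0.05.

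Library totals were 32760123 to 35389307 reads, and 3 reads correspond to 0.0848 to 0.0916 CPM. Of 15 listed Schwann cell markers 14 were in the table, and Sox10 was not found in it. Of the 14, 7 stayed below 1 CPM in every library, S100b, Mbp and Ngfr among them. The summed level of the 14 was 252 to 272 CPM with the materials, against 242 and 251. Its largest part was Ncam1, at 124 to 138 CPM with the materials against 101 and 111, so the sum does not show how the single markers moved. Of 10 tested markers of that list, 4 were called, against 22.3% of all genes. The neural adhesion gene Ncam1 (log2 0.31) and the myelin gene Pmp22 (0.27) were higher, and the neuregulin receptor gene Erbb3 (-0.66) and the transcription factor gene Sox2 (-0.24) were lower. The call of Pmp22 ended without Control replicate 1 (adjusted p = 0.167), and that of Sox2 without it (0.130) and in both limma fits (0.175 and 0.161). Of 8 macrophage markers 6 stayed below 1 CPM, the leukocyte gene Ptprc had 0 or 1 read, and the sum was 7.33 to 8.94 CPM against 7.56 and 7.89. The largest part of that sum was Cd14, which lay lower with the materials (log2 -0.32, not called). The median log2 difference over the 5 tested macrophage markers was 1.05, so the sum does not show how the single markers moved. Of the 5 tested, edgeR called 1, Coro1a, an actin-binding protein gene, at 1.58 to 1.97 CPM against 0.900 and 0.832 (log2 1.05, adjusted p = 0.0420). That call ended in DESeq2 (0.0503) and without any single library other than PCL@PDA replicate 3 (0.0634 to 0.185). Both limma fits called 2 of the 5 macrophage markers, both higher, and DESeq2 called 0 of the 2 to which it gave an adjusted p. The 7 fibroblast markers summed to 814 to 844 CPM with the materials, against 859 and 864. Of the 6 tested, Pdgfra (log2 0.61), Col1a1 (0.69) and Pdgfrb (0.85) were higher, in 14 of 14 alternatives each, and Col1a2, at 602 to 616 CPM against 674 and 671, was lower (-0.14). The call of Col1a2 ended in both limma fits (0.0993 and 0.0986) and without PVDF@PDA replicate 1 (0.0520), Control replicate 1 (0.140) or Control replicate 3 (0.0861). The part of these shifts in the clock differences was not tested. Fewer cells expressing a gene and less RNA per cell cannot be told apart in these bulk samples.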

How the data were processed

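The authors deposited raw read counts per gene for 6 libraries and, per the file headers, 1 table of FPKM per library. Per the submitters' processing notes DESeq2 1.4.5 and the build mRatBN7.2 were used. Which aligner, counter, annotation and strand were used is not given in the sources used here. The group means were estimated by edgeR 4.0.16 under R 4.3.3, using TMM scaling, filterByExpr (13018 of 16849 genes kept) and a robust quasi-likelihood fit over all 6 libraries in 3 groups, with 3 residual degrees of freedom. The prior degrees of freedom of that fit had a median of 50.27. Benjamini-Hochberg adjustment ran over all genes tested, with calls below 0.05, and intervals are at 95%. The depth was 32760123 to 35389307 reads. The members and lists were chosen with earlier results of these data known. Text names all 10 members, the tested loop factors and at most 4 called genes of each other list. Alternatives were a replicate block, RLE size factors (as in DESeq2), library totals, no filter, a non-robust fit, DESeq2 1.42.0, limma 3.58.1 on the deposited FPKM with a pseudocount of 1 or 0.1, a fit of only the groups compared, and each library left out. The replicate number equals the batch in the labels. Deviations of same-numbered libraries correlated across genes at r = 0.00 to 0.14. Only the main edgeR fit was tested on simulated data, for both materials against Control.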

Additional observations from a re-analysis of the deposited data

How the results depend on the processing

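All alternatives for Nr1d2 with PCL@PDA and with both materials kept its call, and the values by which the other calls of members ended stand beside them in the report. With the replicate block, which the batch labels support, 2 members were called with PVDF@PDA (Nr1d2 and Nr1d1), and 59 genes in all differed between the materials in place of 8. The block also brought in Bmal1 with PVDF@PDA (adjusted p = 0.0369) and, with PCL@PDA, Csnk2a2 (0.0322) and Sox2 (0.0111), and it changed no other call of a named gene. DESeq2 called 1 member with both materials. Limma on log2(FPKM + 1) and log2(FPKM + 0.1) called 0 and 0 members with PVDF@PDA. Of all genes those 2 fits called 859 and 986 with PVDF@PDA (2042 in edgeR), 1304 and 1413 with PCL@PDA (2616), 1672 and 1834 with both (2909) and 0 and 0 between the materials, where library totals gave 5, DESeq2 5 and no filter 17. The cause was not tested.

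The log2 difference of Per2 turned positive with library totals, limma with a pseudocount of 1 and limma with 0.1, at 0.019, 0.016 and 0.019 with PVDF@PDA and at 0.033, 0.027 and 0.032 with both materials. That of Per3 with both materials became 0.012, 0.020 and 0.038. None of these passed the test.

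With 1 library left out the lone sample of its group is assumed to vary like the other groups. Over the 6 such fits, members called ranged from 0 to 2 with PVDF@PDA, 1 to 3 with PCL@PDA, 1 to 3 with both and 0 to 0 between the materials, and all genes called from 1031 to 2869, 1346 to 3173, 1495 to 3548 and 0 to 827, the last without PCL@PDA replicate 1. Differences from Control that changed sign, for both materials, PCL@PDA and PVDF@PDA in turn, were Bhlhe40 (-0.17 to 0.36, -0.14 to 0.39, -0.20 to 0.33), Per2 (-0.083 to 0.068, -0.072 to 0.078, -0.095 to 0.057), Per3 (-0.29 to 0.29, -0.37 to 0.21, -0.21 to 0.37) and Hlf (-0.15 to 0.32, -0.44 to 0.505, -0.25 to 0.445). Per1 changed for both (-0.22 to 0.0093) and PVDF@PDA (-0.21 to 0.022), Ciart for both (-0.31 to 0.014) and PCL@PDA (-0.25 to 0.078), and Tef for PCL@PDA (-0.15 to 0.023). Between the materials Clock (-0.0078 to 0.086), Per1 (-0.068 to 0.13), Per2 (-0.078 to 0.031), Cry1 (-0.12 to 0.019), Nr1d1 (-0.089 to 0.18) and Bhlhe40 (-0.20 to 0.10) did. Of these differences that changed sign, only those of Bhlhe40 from Control passed the test, in the fit without Control replicate 3. A fit of only the groups compared was not made for both materials, since all groups enter it. Apart from Bhlhe40, the members with the fewest reads, Nr1d1, Dbp and Per3, have the widest intervals.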
